A study of Mus musculus with 4 samples.

Results

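The imprinted Gnas cluster of the mouse was taken as every CpG site over the genes Gnas and Nespas with 10 kb on either side, chr2:174271237-174356744 of mm10, a window of 85508 bp. Gnas (ENSMUSG00000027523.19) lies on the forward strand at chr2:174284320-174346744 and Nespas (ENSMUSG00000086537.7) on the reverse strand at chr2:174281237-174295436 in GENCODE M21. The window holds 1655 CpGs in the genome sequence. At least 1 library listed 1066 of them, and all 4 libraries listed 520, out of 1545651 such sites genome-wide. Levels below are unweighted means over those 520 sites, or over their subset in a stretch, unless stated otherwise.

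An imprinted gene is expressed mainly from the copy inherited from one parent. The parental copies differ in a methylation mark that was set in the egg or sperm or was added later. Gnas is a compact example with several promoters that are spliced to shared downstream exons. Nesp encodes the neuroendocrine secretory protein NESP55 and is expressed from the maternal copy. Gnasxl encodes XLαs, a large form of the stimulatory G protein alpha subunit, and is expressed from the paternal copy, as are the antisense RNA Nespas and the untranslated exon 1A transcripts. Exon 1 encodes Gsα, the subunit that couples hormone receptors to adenylyl cyclase, and is expressed from both copies in most tissues. A percentage of methylated reads averages over both copies and over every cell, so methylation of a single copy and a mixture of cells cannot be told apart in these values.

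Reduced representation bisulfite sequencing (RRBS) was carried out on 4 libraries, 1 for each condition. R1 is a wild-type mouse embryonic stem cell (ESC) line, and Dnmt1 Tet/Tet ESCs were made from it by placing tet-off cassettes downstream of the promoter of Dnmt1, the maintenance DNA methyltransferase. The Tet/Tet line overexpresses DNMT1 as ESCs and as neurons and was grown under puromycin and neomycin selection. R1 neurons and Tet/Tet neurons were obtained from these lines by 2 days as embryoid bodies followed by 10 to 15 days of neural culture, per the labels. ESCs and neurons were sequenced in separate projects and, per the labels, with different DNA extractions, so cell type, project and extraction cannot be told apart. With 1 library per condition no difference can be set against replicate error, and no test was made. The tables give no read counts, so the depth behind each percentage is unknown.

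Libraries differed in the number of sites listed, from 2310510 in R1 ESCs to 5295489 in R1 neurons on chromosomes 1 to 19, X and Y. Not analysed here in Tet/Tet neurons were parts of chromosomes 7 and 10 and all of 8 and 9, whereas the Gnas window was analysed whole. The mean over all sites listed in the 4 libraries was 26.8% for R1 ESCs, 28.1% for Tet/Tet ESCs, 53.3% for R1 neurons and 10.9% for Tet/Tet neurons. R1 neurons were thus the most methylated library and Tet/Tet neurons the least, and each level at Gnas is read beside these values. The tables hold no expression, so the labelled cell types were not checked against marker transcripts. Of 9 listed pluripotency genes, 4 had a promoter with at least 5 shared sites, and the median of their 6 promoters was 3.85% for R1 ESCs, 5.44% for Tet/Tet ESCs, 55.8% for R1 neurons and 7.52% for Tet/Tet neurons. Of those left out, Dppa5a, Tdgf1 and Zfp42 lie on chromosomes 8 and 9.

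The sequences below carry the patterns described. They are forward-strand bases of GRCm38 (mm10), and capitals mark CpGs that all 4 libraries listed. The first is the 250 bases before the first Nesp start, from RefSeq, at chr2:174284070-174284319. It holds 14 CpGs, of which 11 were listed in all libraries. The second is the stretch of 300 coding bases with the most shared sites in the first exon of Gnasxl, chr2:174299381-174299680, with 20 shared sites. The third is the coding part of exon 1, chr2:174330296-174330434, with 6 shared sites.
Nesp promoter: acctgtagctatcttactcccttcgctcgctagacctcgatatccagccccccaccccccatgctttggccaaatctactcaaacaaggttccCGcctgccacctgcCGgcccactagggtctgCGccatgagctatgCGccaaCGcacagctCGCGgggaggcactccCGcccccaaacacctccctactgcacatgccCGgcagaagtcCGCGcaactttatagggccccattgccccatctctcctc
Gnasxl first exon: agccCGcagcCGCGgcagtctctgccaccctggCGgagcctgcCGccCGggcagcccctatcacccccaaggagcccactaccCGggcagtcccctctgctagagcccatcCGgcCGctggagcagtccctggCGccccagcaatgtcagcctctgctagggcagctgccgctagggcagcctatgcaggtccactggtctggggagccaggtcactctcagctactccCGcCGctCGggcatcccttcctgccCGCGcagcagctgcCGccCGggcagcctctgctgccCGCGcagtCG
Gnas exon 1: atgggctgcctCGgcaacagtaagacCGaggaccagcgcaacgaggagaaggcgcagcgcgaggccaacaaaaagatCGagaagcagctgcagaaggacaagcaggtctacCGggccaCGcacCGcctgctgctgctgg

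The 3 sequences fell into different classes. The Nesp promoter sequence was at 3.50% for R1 ESCs, 1.20% for Tet/Tet ESCs, 33.2% for R1 neurons and 7.98% for Tet/Tet neurons, so only R1 neurons stood well above the others. The Gnasxl sequence was at 5.74%, 18.2%, 42.0% and 12.1% in the same order, which placed Tet/Tet ESCs between R1 ESCs and R1 neurons. The exon 1 sequence was at 0.843%, 1.39%, 1.73% and 2.01%, and no site in it exceeded 8.59% in any library. Sites a few bases apart share reads in RRBS and are not independent.

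Over the 520 sites of the window, the mean was 8.69% for R1 ESCs (SD 16.8 over sites), 12.1% for Tet/Tet ESCs (SD 17.5), 39.3% for R1 neurons (SD 29.8) and 8.67% for Tet/Tet neurons (SD 9.52). R1 neurons were above the other 3 libraries at 383 of the 520 sites, and genome-wide this held at 64.6% of shared sites. In R1 neurons, 308 sites (59.2%) lay between 20 and 80%, where 12.3% of all shared sites in that library did. The range held 52 sites (10.0%) of R1 ESCs, 131 (25.2%) of Tet/Tet ESCs and 44 (8.46%) of Tet/Tet neurons, where the genome-wide shares were 33.7%, 34.0% and 18.1%. The cluster was therefore mostly unmethylated in the ESC libraries and in Tet/Tet neurons, and at intermediate levels in R1 neurons.

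**Figure D1:**
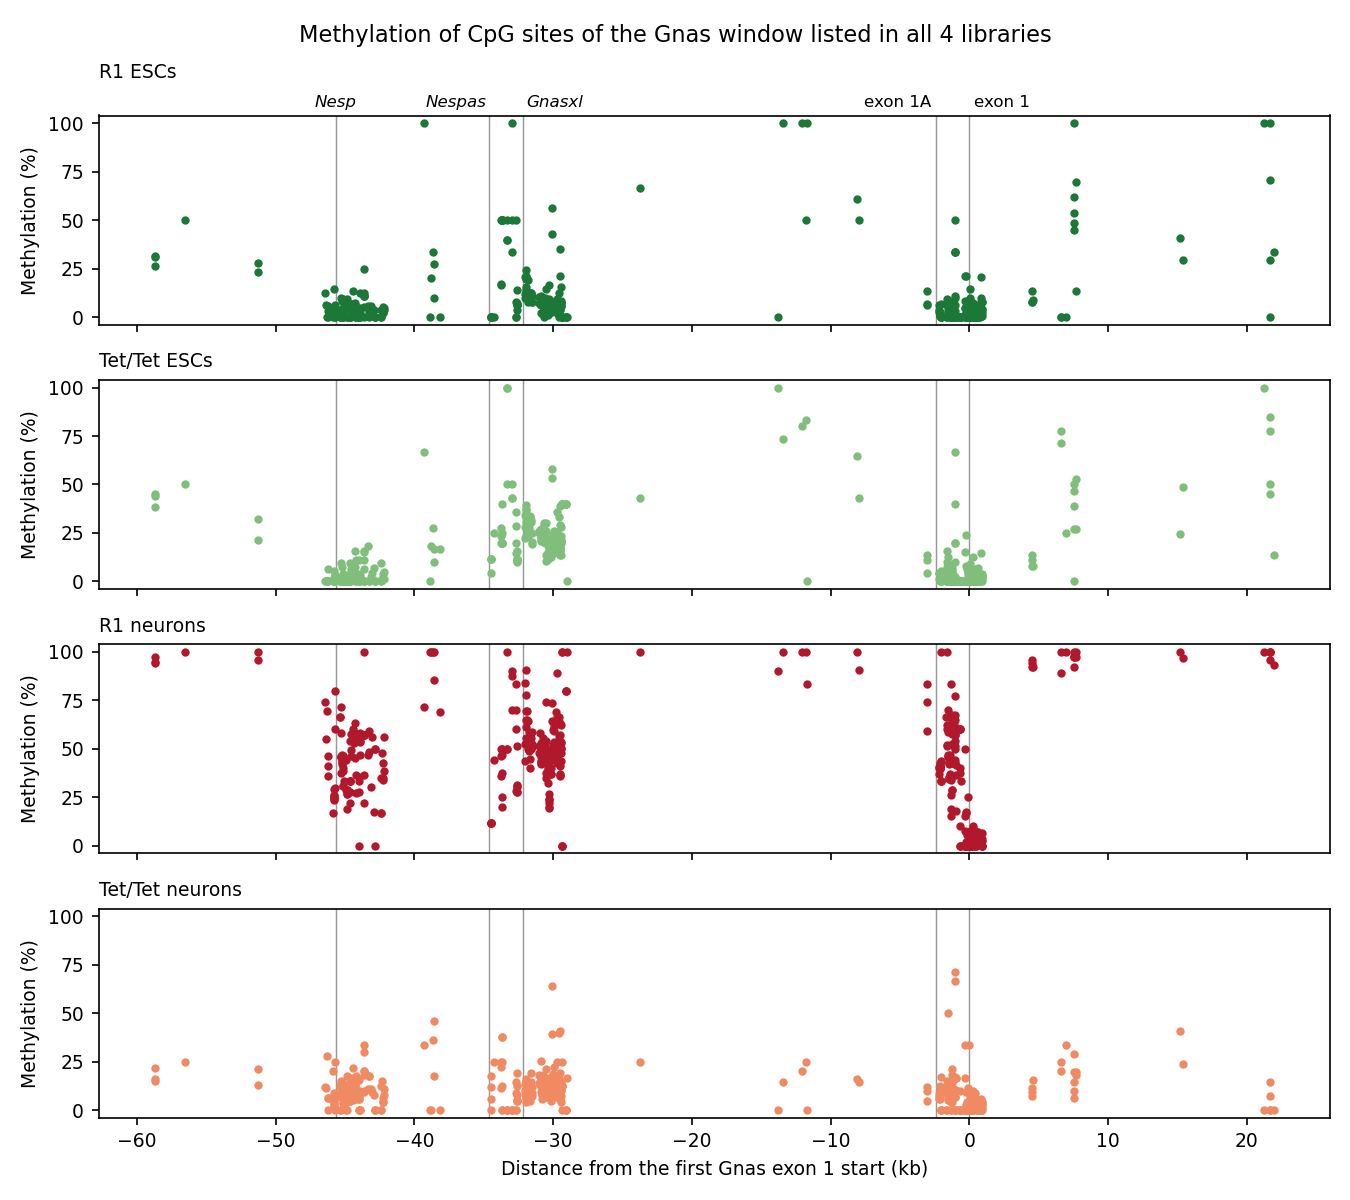
Methylation (percent of reads) of the 520 CpG sites of the Gnas window listed in all 4 libraries, against distance in kb from the first exon 1 start. Each point is a site, each panel a library, and vertical lines mark the first annotated start of each promoter. In R1 neurons the sites around Nesp, Gnasxl and exon 1A sit at intermediate levels, those of the flanks near 100%, and those at exon 1 near 0.

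Tet/Tet was compared with R1 to ask whether methylation at the cluster differed in cells with excess DNMT1. In ESCs the mean was 3.41 percentage points higher in Tet/Tet (SD 14.5 over sites), beside 1.35 points over all shared sites. The medians over sites went the other way, at 3.23% in R1 and 2.78% in Tet/Tet ESCs, a difference of -0.448 points. Tet/Tet was higher at 262 sites and lower at 170, where the genome-wide shares were 46.9% and 39.1%. At least 10 points separated the libraries at 130 sites in the higher and 32 in the lower direction, where the genome-wide shares were 15.5% and 10.6%. In neurons the difference of Tet/Tet from R1 was -30.6 points (SD 26.6), beside -42.4 points over all shared sites. As a mean of 100 bp stretches it was -43.0 points at the cluster, a summary not computed genome-wide. Over sites the difference was thus smaller at the cluster than genome-wide, and whether this holds for 100 bp stretches is not known. Tet/Tet was higher at 54 sites and lower at 437, beside 13.3% and 79.3% genome-wide. Tet/Tet neurons were at least 10 points lower at 369 sites and higher at 5, where the genome-wide shares were 60.5% and 0.801%. R1 neurons were 30.6 points above R1 ESCs, with 431 sites higher and 53 lower (genome-wide 75.2% and 13.1%). Of these, 365 sites were at least 10 points higher and 8 lower (genome-wide 53.4% and 2.02%). The difference of Tet/Tet neurons from Tet/Tet ESCs was -3.43 points, with 241 sites higher and 214 lower (genome-wide 27.6% and 61.5%). Of these, 53 sites were at least 10 points higher and 108 lower (genome-wide 4.86% and 40%). Each library enters 2 of these comparisons, so they are not independent of each other.

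Promoters were defined as 500 bp on either side of each annotated transcript start, with overlapping windows of a gene merged. The 16 Gnas starts gave 6 such promoters and the 3 Nespas starts gave 2. Of these 8, the 2 internal Gnas starts at 174341704 and 174344650, both of retained-intron transcripts, held no site listed in all 4 libraries. The other 6 held between 5 and 124. The difference in methylation between Tet/Tet and R1 ESCs reached 10 points upward at 2 of the 6, the Gnasxl promoter and the main Nespas promoter, and downward at none. Among 19677 promoters of other genes, 6.04% were at least 10 points higher and 2.81% lower. The sites of the short Nespas start all lie in the Nesp promoter, so the counts over the 6 take that stretch more than once. In neurons, 4 of the 6 were at least 10 points lower in Tet/Tet and none higher, beside 40.5% and 0.0661% of other promoters. The main Nespas promoter, not among these 4, differed by -6.24 points over 5 sites. Over the 23 sites that the neuron libraries shared it differed by -30.4 points. From R1 ESCs to R1 neurons, 5 of the 6 were at least 10 points higher and none lower, beside 40% and 0.122% of other promoters. From Tet/Tet ESCs to Tet/Tet neurons, none was at least 10 points higher and 1, Gnasxl, was lower, beside 1.32% and 19.1%.

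The Nesp promoter covers 3 starts between 174284320 and 174285358 and held 67 shared sites. It was at 3.49% for R1 ESCs (SD 3.27 over sites), 1.94% for Tet/Tet ESCs (SD 3.18), 41.6% for R1 neurons (SD 14.1) and 8.87% for Tet/Tet neurons (SD 5.25). The ranges over sites of R1 ESCs (0 to 14.3%) and R1 neurons (16.7 to 80%) did not overlap. Among promoters of other genes, 40% were at least 10 points higher in R1 neurons than in R1 ESCs. How many of them had separate ranges was not computed. All 67 sites were at least 10 points higher in R1 neurons, where 53.4% of shared sites genome-wide were. In Tet/Tet neurons 66 of the 67 sites were lower than in R1 neurons and 65 by at least 10 points, where the genome-wide shares were 79.3% and 60.5%. In ESCs the difference of Tet/Tet from R1 was -1.54 points, with Tet/Tet lower at 44 sites and higher at 7 (genome-wide 39.1% and 46.9%). The 5′ end of the short Nespas transcript at 174285435 falls in the same stretch, and its 31 sites gave 3.58%, 2.62%, 41.1% and 9.41% in the same order. It is not a separate measurement from that of Nesp.

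The main Nespas promoter, with starts at 174295389 and 174295436, held only 5 sites listed in all libraries. These were at 0% for R1 ESCs, 12.8% for Tet/Tet ESCs (SD 7.45), 18.3% for R1 neurons (SD 14.6) and 12.1% for Tet/Tet neurons (SD 9.78). Tet/Tet ESCs were above R1 ESCs at 5 of 5 sites, where 46.9% of shared sites genome-wide were. The neuron libraries shared 23 sites here, and over those the level was 35.7% in R1 and 5.21% in Tet/Tet neurons, so the choice of sites changed the difference of Tet/Tet from R1 neurons from -6.24 to -30.4 points. With 1000 bp on either side in place of 500 bp, the difference of Tet/Tet from R1 ESCs was -7.36 points. The values of this promoter therefore depended on the sites taken.

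Between Nespas and Gnasxl, the 1 kb tile at chr2:174296000-174296999 held 12 shared sites and was the highest tile of R1 ESCs from Nesp to exon 1 among those with at least 5 shared sites. It was at 42.8% for R1 ESCs (SD 12.8 over sites), 38.8% for Tet/Tet ESCs (SD 30.1), 46.8% for R1 neurons (SD 19.7) and 14.3% for Tet/Tet neurons (SD 14.8). Of the 12 sites in R1 ESCs, 8 were at exactly 50%, and 5 were at exactly 50% in R1 neurons. R1 ESCs and R1 neurons differed by 4.03 points in this tile, the smallest difference among tiles with at least 5 sites, the exon 1 tile apart. This depended on the sites taken. Over all sites that each library listed in the tile, R1 ESCs were at 40.9% (15 sites) and R1 neurons at 25.7% (27 sites).

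At Gnasxl every shared site of the promoter and of the first exon was higher in Tet/Tet ESCs than in R1 ESCs. Its promoter around the start at 174297859 held 24 shared sites, at 12.7% for R1 ESCs (SD 5.66), 25.5% for Tet/Tet ESCs (SD 9.32), 53.9% for R1 neurons (SD 17.6) and 8.59% for Tet/Tet neurons (SD 4.01). Tet/Tet ESCs were higher than R1 ESCs at 24 of 24 sites and by at least 10 points at 17 (genome-wide 46.9% and 15.5%). The mean difference was 12.8 points. In neurons Tet/Tet was lower at all 24 sites (genome-wide 79.3%), with a mean difference of -45.3 points. The order of the libraries was thus R1 neurons, Tet/Tet ESCs, R1 ESCs and Tet/Tet neurons.

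R1 neurons and then Tet/Tet ESCs were also the highest libraries through the first exon of Gnasxl, chr2:174297859-174300217, nearly all of which is coding. The promoter window reaches 500 bp into this exon, so the promoter and the exon share sites and are not separate measurements. The 83 shared sites of the exon were at 9.05% for R1 ESCs (SD 8.20), 23.9% for Tet/Tet ESCs (SD 7.92), 49.7% for R1 neurons (SD 12.9) and 12.8% for Tet/Tet neurons (SD 7.65). Tet/Tet ESCs were higher than R1 ESCs at 83 of 83 sites, where 46.9% of shared sites genome-wide were higher. The difference was 14.8 points (SD 4.47 over sites) and reached 10 points at 74 sites, as it did at 15.5% of shared sites genome-wide. R1 neurons exceeded R1 ESCs by at least 10 points at all 83 sites (genome-wide 53.4%). Tet/Tet neurons were below R1 neurons at all 83 (genome-wide 79.3%), with a difference of -36.9 points (SD 13.3). They were below Tet/Tet ESCs at 74 sites and above them at 9 (genome-wide 61.5% and 27.6%), with a difference of -11.05 points.

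**Figure D2:**
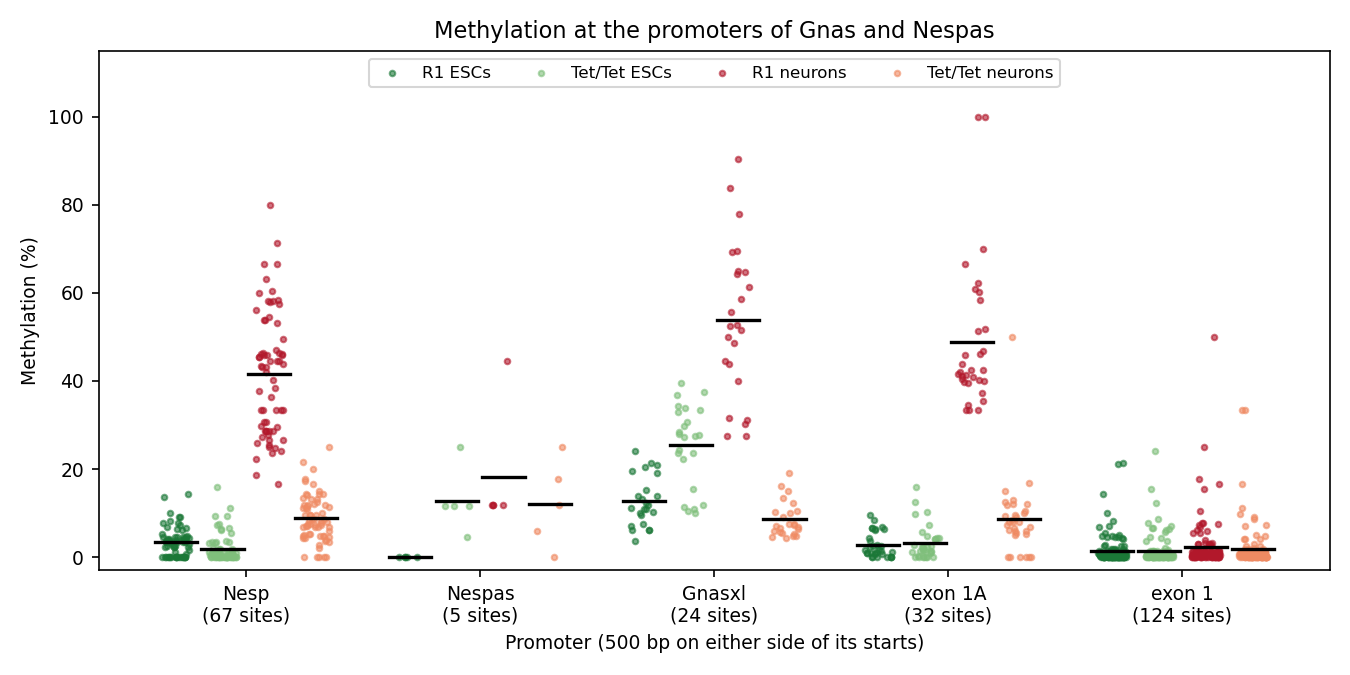
Methylation (percent of reads) of each shared CpG site within 500 bp of the annotated starts of Nesp, Nespas (main starts), Gnasxl, exon 1A and exon 1, by library. Points are sites with a small sideways scatter and black bars are means over sites, with no replicate error. R1 neurons lie highest at Nesp, Gnasxl and exon 1A, Tet/Tet ESCs lie above R1 ESCs at Gnasxl and Nespas, and exon 1 is low throughout.

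Exon 1A, the first exon of mainly non-coding transcripts upstream of Gsα, has 6 annotated starts between 174327570 and 174328023. Its promoter held 32 shared sites, at 2.71% for R1 ESCs (SD 2.84), 3.30% for Tet/Tet ESCs (SD 3.94), 48.9% for R1 neurons (SD 16.6) and 8.71% for Tet/Tet neurons (SD 8.81). In R1 neurons the lowest site was at 33.3%, above the highest site of either ESC library, 9.57% in R1 and 15.9% in Tet/Tet. How many promoters of other genes were separated in this way was not computed. The difference of Tet/Tet from R1 ESCs was 0.591 points, and -0.221 points with 250 bp on either side of the starts. Tet/Tet neurons were lower than R1 neurons at 32 of 32 sites (genome-wide 79.3%), with a difference of -40.2 points. Over the 46 sites that the neuron libraries shared, R1 neurons were at 37.5% and Tet/Tet neurons at 7.36%.

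The exon 1 promoter, with 4 starts between 174330006 and 174330287, was near 0% in every library. Its 124 shared sites were at 1.501% for R1 ESCs (SD 3.33), 1.39% for Tet/Tet ESCs (SD 3.17), 2.29% for R1 neurons (SD 5.68) and 1.82% for Tet/Tet neurons (SD 4.74). The difference of Tet/Tet from R1 was -0.109 points in ESCs and -0.471 points in neurons. Within the first exon itself, 54 sites gave means from 1.12 to 1.25% over the 4 libraries, and no site exceeded 14.3%. The median promoter of other genes was at 3.09% for R1 ESCs, 3.13% for Tet/Tet ESCs, 6.66% for R1 neurons and 3.31% for Tet/Tet neurons.

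The drop from exon 1A to exon 1 in R1 neurons was followed in bins of 500 bp before the first exon 1 start at 174330006. The mean was 43.1% in the bin from -2500 to -2001 bp (16 sites), 60.04% in the next bin (12 sites), 48.6% in the third (42 sites), 30.5% in the fourth (13 sites) and 4.37% in the last bin before the start (37 sites). The first 500 bp after the start were at 1.17% (65 sites). The last run of 5 sites in a row at 20% or more ended 1001 bp before the start, at 174329005. The last single site at 20% or more, at 25%, lay 61 bp before it, and the 105 shared sites beyond averaged 1.47% with none above 10.4%. The other libraries showed no step of this size, and their highest bin means over this stretch were 5.95% for R1 ESCs, 5.80% for Tet/Tet ESCs and 11.9% for Tet/Tet neurons.

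**Figure D3:**
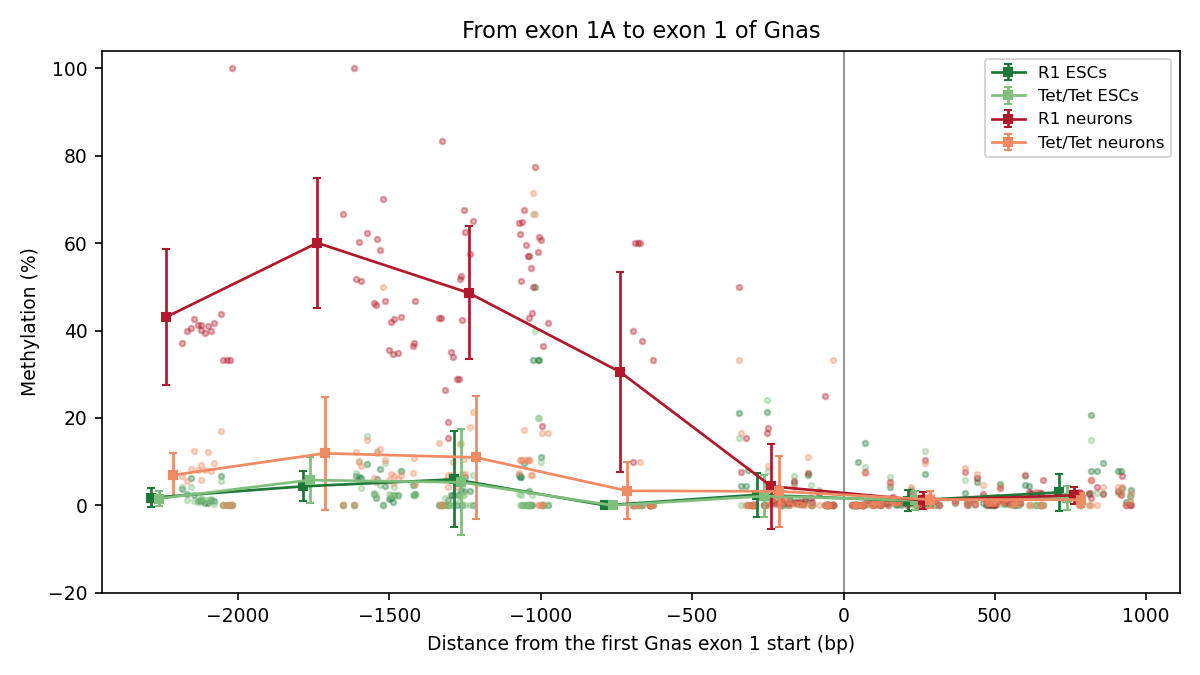
Methylation from exon 1A to exon 1 against distance in bp from the first exon 1 start (vertical line). Faint points are shared CpG sites, and squares with bars are means and SD over sites in bins of 500 bp, drawn slightly apart by library. R1 neurons fall from 43.1% in the first bin to 4.37% in the last bin before exon 1 and 1.17% after its start.

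Sites above 80% in R1 neurons numbered 56 of the 520 in the window, and all 12 sites of the flanks were among them. The mean of R1 neurons over all shared sites was 53.3%, and 12.3% of those sites lay between 20 and 80%. The genome-wide share above 80% was not computed, so whether the flanks differ from other sites of this library is not known. The 12 sites of the flanks were at 43.6% for R1 ESCs, 50.2% for Tet/Tet ESCs, 97.6% for R1 neurons and 11.1% for Tet/Tet neurons. In R1 neurons none of these sites was below 93.3%. The tile at chr2:174337000-174337999, within Gnas beyond exon 1, was at 55.9%, 34.7%, 97.4% and 16.6% over 7 sites in the same order. By annotation, the 153 sites in coding exons were at 44.7% in R1 neurons, the 164 in introns at 42.1% and the 191 in untranslated or non-coding exons, many of them around exon 1, at 28.8%.

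Tiles of 1 kb with at least 5 sites showed where along the cluster the lines parted. In ESCs, 18 tiles could be compared, of which 4 were at least 10 points higher in Tet/Tet and 1 lower, beside 16.2% and 8.36% of 103863 tiles genome-wide. The higher tiles began at 174295000, 174298000, 174299000 and 174300000, with differences of 12.8, 15.5, 14.5 and 18.7 points, so 3 of them adjoined each other over Gnasxl. The lower tile was the one at 174337000, with a difference of -21.3 points over 7 sites. All other ESC tiles differed by at most 6.26 points in either direction.

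In neurons, 26 tiles could be compared, and 25 were at least 10 points lower in Tet/Tet and none higher, beside 91% and 0.101% of tiles genome-wide. The share is close to the genome-wide one. The exception was the tile at 174330000, which holds exon 1, at 1.38% in R1 and 1.18% in Tet/Tet neurons over 112 sites. The largest difference was -95.4 points in the tile at 174351000 in the right flank, at 98.5% in R1 and 3.06% in Tet/Tet neurons over 7 sites. In the 6 tiles from 174295000 to 174300000, over Nespas and Gnasxl, the difference lay between -22.8 and -45.2 points, and R1 neurons were at 30.2 to 52.5% there.

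**Figure D4:**
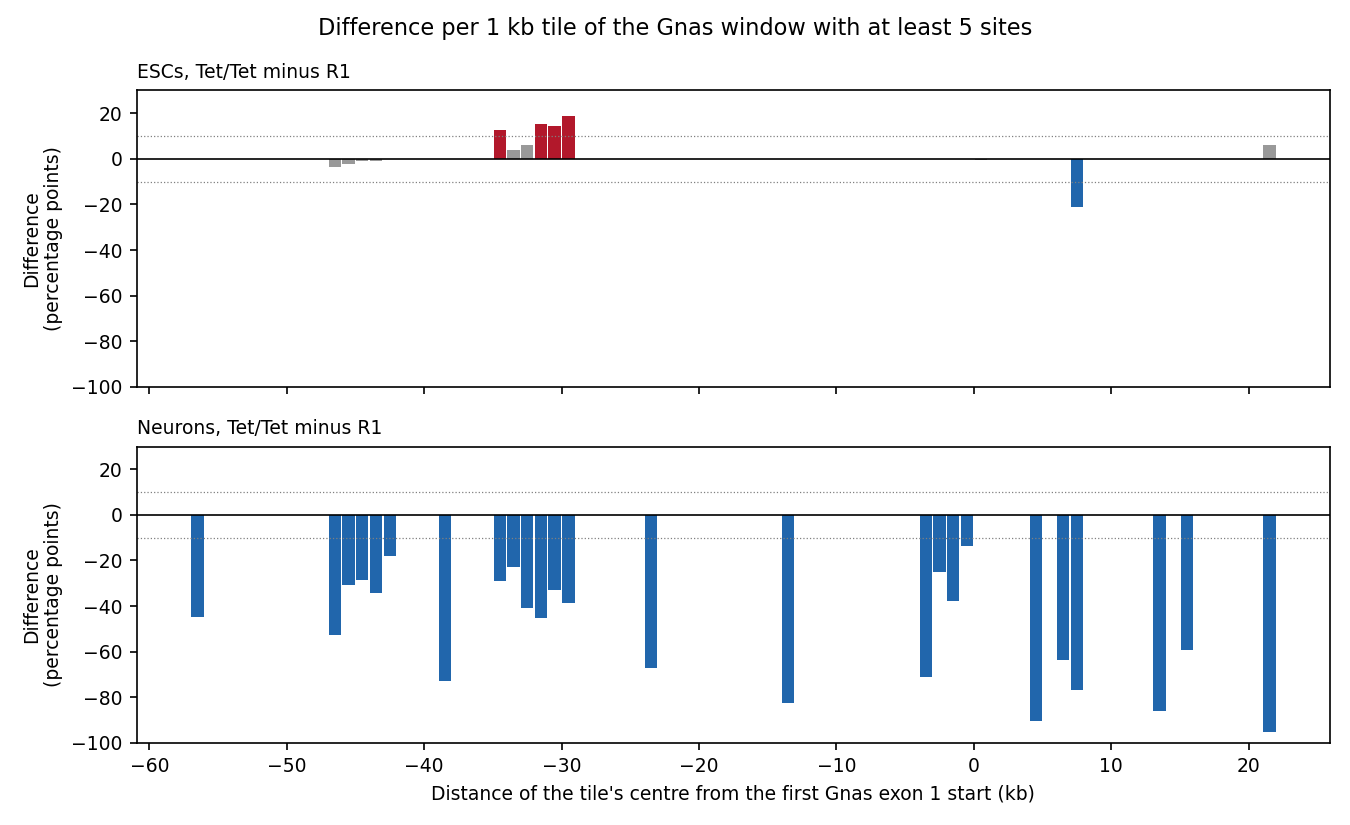
Difference in mean methylation, Tet/Tet minus R1 in percentage points, per 1 kb tile with at least 5 sites shared by the 2 libraries compared, against the distance of the tile's centre from the first exon 1 start in kb. Red bars are at least 10 points higher in Tet/Tet, blue bars at least 10 points lower, grey bars neither, and dotted lines mark 10 points. In ESCs 4 tiles are red and 1 is blue, and in neurons 25 of 26 are blue.

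From ESCs to neurons of the R1 line, 17 of 19 tiles were at least 10 points higher and none lower, beside 78.3% and 0.434% genome-wide. The 2 that did not reach 10 points were the tile before Gnasxl, with 4.03 points, and the exon 1 tile. From ESCs to neurons of the Tet/Tet line, 1 of 20 tiles was at least 10 points higher and 8 were lower, beside 3.52% and 61% genome-wide. The higher tile, at 174286000 within the Nesp region, went from 3.91 to 18.8% over 24 sites. Lower tiles included those at 174296000, 174297000 and 174298000 at Gnasxl, with differences of -33.0, -17.7 and -26.7 points.

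In 18 tiles with at least 5 sites in all libraries, 12 lay between 30 and 70% in R1 neurons, beside 7.69% of tiles genome-wide. The count was 3 for R1 ESCs (40.3% genome-wide), 3 for Tet/Tet ESCs (38.6%) and 0 for Tet/Tet neurons (5.63%). The highest tile of Tet/Tet neurons was at 16.7%. By promoter, Nesp, Gnasxl, exon 1A and the short Nespas start lay between 30 and 70% in R1 neurons, as did 7.41% of other promoters. No promoter of the cluster did in R1 ESCs (14.4% of other promoters), Tet/Tet ESCs (14.4%) or Tet/Tet neurons (1.4%). All 4 were also below 20% in R1 ESCs and in Tet/Tet neurons, and the short Nespas start shares its sites with Nesp. Of other promoters, 1335 (6.78%) met these conditions together, out of 1459 that lay between 30 and 70% in R1 neurons.

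**Figure D5:**
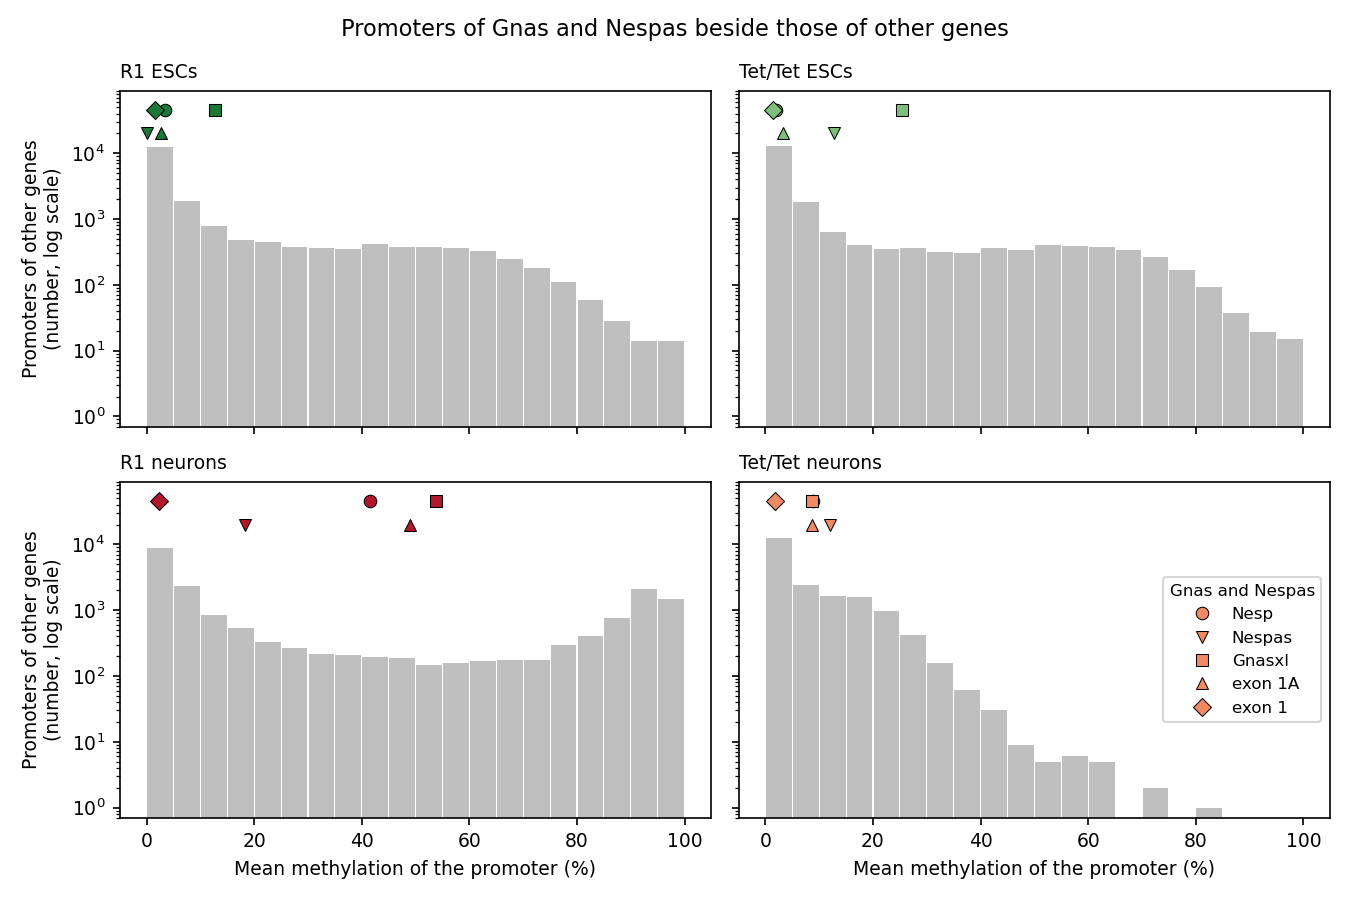
Number of promoters of other genes (grey bars, log scale, 19677 in each panel) by mean methylation in steps of 5%, with the promoters of Gnas and Nespas as symbols placed along the same horizontal axis, by library. The height of a symbol has no meaning. In R1 neurons Nesp, exon 1A and Gnasxl lie at 41.6, 48.9 and 53.9%, in the sparse middle of the distribution, and exon 1 lies at 2.29%.

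Other imprinted genes gave a mixed picture beside Gnas. Of 15 listed imprinted genes, 14 had a promoter with at least 5 shared sites, and their 20 promoters had a median level of 11.2% for R1 ESCs, 11.9% for Tet/Tet ESCs, 35.5% for R1 neurons and 7.61% for Tet/Tet neurons. In Tet/Tet ESCs, 7 of the 20 were at least 10 points higher than in R1 ESCs and 1 was lower, beside 6.04% and 2.81% of all other promoters. These promoters are not all separate, since Peg10 and Sgce share their sites. The higher ones included Meg3, a maternally expressed non-coding RNA, whose first promoter was at 15.9% in R1 and 54.7% in Tet/Tet ESCs. They also included Mest, a paternally expressed gene, at 0.694% in R1 and 49.8% in Tet/Tet ESCs. Airn, the antisense RNA that silences Igf2r, was lower, at 16.5% in R1 and 2.09% in Tet/Tet ESCs. In neurons 13 of the 20 were at least 10 points lower in Tet/Tet and none higher, beside 40.5% and 0.0661% of all other promoters. At Peg3, a paternally expressed zinc finger gene, R1 neurons were at 44.1% and Tet/Tet neurons at 2.34%.

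Most promoters of other G protein alpha subunits that could be measured resembled exon 1. Of 15 listed genes, 8 had a promoter with at least 5 shared sites, and the median of their 9 promoters was 2.30% for R1 ESCs, 3.30% for Tet/Tet ESCs, 3.32% for R1 neurons and 2.79% for Tet/Tet neurons. Gnao1, Gnai2, Gnat1, Gnaz, Gna11 and Gna15 had no shared promoter site. They lie on chromosomes 8, 9 and 10, which were not analysed in full in Tet/Tet neurons. Gnaq, which couples receptors to phospholipase C, was at 2.86%, 3.30%, 2.92% and 2.79%. The exceptions were Gnat2, the cone transducin subunit, at 34.9%, 48.0%, 96.6% and 22.7%, and Gna14, at 3.95%, 4.06%, 35.8% and 4.23%. In neurons these 2 of the 9 were at least 10 points lower in Tet/Tet, beside 40.5% of all other promoters, and in ESCs 1 of the 9, Gnat2, was at least 10 points higher, beside 6.04%.

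In R1 ESCs no promoter of Gnas or Nespas lay between 20 and 80%, the range that the rule for naming genes with a like pattern required, so no such gene is named.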

How the data were processed

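The authors trimmed RRBS reads with Trim Galore 0.6.4, checked them with FastQC 0.11.8, mapped them to mm10 with Bismark 0.19.0 and called CpGs with MethylDackel 0.3.0, per the submitters' processing notes. They deposited, for each of the 4 libraries, the methylated percent of the reads over each CpG, with no normalization between libraries and no read counts. The depth per site is therefore unknown, and intervals that need it were not computed.

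Here Python 3.11.15, numpy 2.4.6, pandas 2.3.3 and matplotlib 3.10.9 were used. Positions were converted to start at 1 and checked against GRCm38. Means over CpG sites were unweighted. Levels used sites listed in all 4 libraries, and 1 kb tiles used sites listed in both libraries compared, with at least 5 sites. Differences of at least 10 percentage points were counted as a description. SDs are over sites and not between cultures. With 1 library per condition there was no test. The tile calculation was tested on simulated data, and only the merging of promoter windows was tested, on made-up starts. The genes and lists were chosen with earlier results of these data known. The named genes were Gnas and Nespas, members of the fixed lists, and up to 3 promoters most like those of Gnas. Of the 4 Gnas promoters in RefSeq, the Nesp sequence is shown, since stretches with untranslated exon were left out. Alternatives varied the sites, promoter width, summary, tile minimum, threshold and MspI fragments of 40 to 220 bp.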

Additional observations from a re-analysis of the deposited data

Results flagged for a closer look

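The mean difference of Tet/Tet from R1 had opposite signs in ESCs and in neurons at 5 places, and at 3 of them the sign in ESCs turned under another setting. Whether the 2 differences differ from each other was not tested, since there was 1 library per condition. Over the 520 sites of the cluster the difference was 3.41 points in ESCs and -30.6 points in neurons, which are -34.0 points apart, but the difference of medians in ESCs was -0.448 points. At the Gnasxl promoter it was 12.8 and -45.3 points, which are -58.0 points apart, and in the first exon of Gnasxl 14.8 and -36.9 points, which are -51.7 points apart. The promoter window and the first exon of Gnasxl overlap and share sites, and the cluster mean includes the sites of every other place. At the exon 1A promoter the difference in ESCs was small, at 0.591 points, against -40.2 points in neurons, which are -40.8 points apart, and in ESCs it was -0.221 points with 250 bp or protein-coding transcripts and -0.171 points with 1000 bp. At the main Nespas promoter, over 5 sites, it was 12.8 and -6.24 points, which are -19.1 points apart, and in ESCs it was -7.36 points with 1000 bp. All 4 libraries enter each of these values, and cell type cannot be told apart from sequencing project and extraction.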

How the results depend on the processing

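No paired analysis was possible because each condition had 1 library. Leaving out a replicate was not possible either. A value was counted as moved when it changed by at least 5 points or a count by over 1.5 times, and of 328 alternative values 273 did not move. Restricting sites to MspI fragments of 40 to 220 bp gave mean differences of -23.5 points between the neuron lines and 25.3 points between R1 neurons and R1 ESCs. The mean of 100 bp stretches gave -43.0, 37.5 and, for Tet/Tet neurons against Tet/Tet ESCs, -9.48 points. The difference of medians was -0.448 points between the ESC lines, against a mean difference of 3.41 points. It was 39.4 points for R1 neurons against R1 ESCs and 4.37 points for Tet/Tet neurons against Tet/Tet ESCs, whose mean difference was -3.43 points.

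With 250 bp on either side, Gnasxl was at 31.3% for Tet/Tet ESCs and 65.3% for R1 neurons, and exon 1A at 43.1% in R1 neurons, as with protein-coding transcripts only. The median of exon 1A in R1 neurons was 42.3%. Its difference between the ESC lines, 0.591 points, was -0.221 points with 250 bp or protein-coding transcripts and -0.171 points with 1000 bp. The short Nespas start was at 55.2% in R1 neurons in MspI fragments. The main Nespas promoter in R1 neurons was at 11.8% as a median, with 250 bp and in MspI fragments. With 1000 bp its level for R1 ESCs was 27.4%, for Tet/Tet ESCs 20.02% and for R1 neurons 32.4%, and Tet/Tet minus R1 ESCs turned to -7.36 points. The wider window also took in sites of the tile at chr2:174296000-174296999. Why the other values moved was not tested.

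At 25 points, 0 of 18 ESC tiles were higher and 0 lower in Tet/Tet. From ESCs to neurons of Tet/Tet, 0 of 20 were higher and 5 lower. With at least 10 sites per tile, 0 of 13 ESC tiles and 16 of 17 neuron tiles were lower in Tet/Tet. R1 neurons were higher than R1 ESCs in 11 of 13 tiles. Tet/Tet neurons were lower than Tet/Tet ESCs in 4 of 14. In MspI fragments these last 3 counts were 11 of 13, 10 of 12 and 2 of 13. Genome-wide shares under these settings were not computed. Tiles at 30 to 70% with at least 10 sites numbered 1 of 13 for R1 ESCs and 1 of 13 for Tet/Tet ESCs. In Tet/Tet ESCs the count was 7 of 18 at 20 to 80%, 0 of 18 at 40 to 60% and 5 of 22 with at least 3 sites per tile. Fewer tiles or sites enter under the stricter settings. The depth behind each percentage is unknown.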

Other observations

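Many sites of the cluster had values at the ends of the scale. Of the sites each library listed in the window, 187 of 571 were at exactly 0% for R1 ESCs, 187 of 624 for Tet/Tet ESCs, 168 of 920 for R1 neurons and 414 of 914 for Tet/Tet neurons. At exactly 100% were 11, 46, 187 and 25 sites in the same order. The same shares were not computed genome-wide, so whether these counts are particular to the cluster is not known. The neuron libraries shared 792 sites in the window, and the 272 of them that were not listed in all 4 libraries were at 51.2% in R1 and 11.6% in Tet/Tet neurons, against 39.3% and 8.67% over the 520 shared by all.

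The internal Gnas start at 174344650, which had no site listed in all libraries, had 4 sites shared by the neuron libraries, at 100% in R1 and 81.3% in Tet/Tet neurons. In the next tile, at 174345000, 17 such sites were at 98.5% in R1 and 39.3% in Tet/Tet neurons, the highest tile level of Tet/Tet neurons over such sites apart from the tile at 174273000, with 5 sites at 50%.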
